A study of Mus musculus with 12 samples.

Results

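The genes described here are used as markers of enteric glia, the glial cells of the gut wall, and of Schwann cells. Schwann cells are the glia of peripheral nerves, which run through both colon and bladder. The genes are *S100b*, *Sox10*, *Gfap*, *Foxd3*, *Ednrb*, *Erbb3*, *Ptprz1*, and *Cdh19*, and were chosen by gene name, so that 8 of 54532 genes in the tables belong to the set. Some of them, such as *Erbb3* and *S100b*, are also expressed in other cells. RNA of whole colon and whole urinary bladder was sequenced in 12 libraries of male mice, each from 1 mouse, so that either tissue had 3 Ctrl and 3 Y/T KO samples. The comparison asks what loss of YAP (*Yap1*) and TAZ (*Wwtr1*), transcriptional co-activators of the Hippo pathway, in smooth muscle does to transcripts of the tissue. Y/T KO mice carried floxed *Wwtr1* and *Yap1* (*TAZ* fl/fl/*YAP* fl/fl) and Myh11CreERT2, whereas Ctrl mice carried the same floxed alleles and were Cre negative. Both genotypes received tamoxifen at 1 mg per mouse per day in 5 daily injections, and tissue was taken 7 days after the first injection from mice labeled as 5 to 7 weeks old. Cre was driven by the smooth muscle myosin heavy chain promoter, so recombination was aimed at smooth muscle cells and not at glia. Of 9 mice, 3 gave both tissues (Ctrl mouse 788 and Y/T KO mice 783 and 780).

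Enteric glia and Schwann cells both descend from the neural crest. SOX10 and FOXD3 are transcription factors of that lineage, and SOX10 is needed to maintain glial identity. The endothelin receptor B (*Ednrb*) and the neuregulin receptor ERBB3 receive signals that keep neural crest cells dividing and alive, and loss of endothelin signaling leaves the distal gut without a nervous system. PTPRZ1 is a receptor-type tyrosine phosphatase that binds the growth factors pleiotrophin and midkine. S100B is a calcium-binding protein, GFAP is an intermediate filament of astrocytes and of a subset of enteric glia, and cadherin 19 is an adhesion molecule of Schwann cell precursors.

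Expression was given as TPM, the share of a library's transcripts after division by transcript length, so that levels of different genes can be set side by side. Aligned sequence ran from 2.80 to 3.94 gigabases per library, and 0 of 66 pairs of libraries held identical values. *Yap1* stood at 45.8 to 54.9 TPM in Ctrl colon and 41.3 to 47.0 TPM in Y/T KO colon, and at 98.6 to 110 TPM in Ctrl bladder and 69.4 to 72.1 TPM in Y/T KO bladder. *Wwtr1* stood at 16.8 to 21.5 and 17.9 to 22.7 TPM in Ctrl and Y/T KO colon, and at 32.5 to 61.6 and 48.3 to 60.8 TPM in Ctrl and Y/T KO bladder. Neither gene passed the test in either tissue (limma, adjusted p = 0.697 and 0.730 in colon, 0.0625 and 0.678 in bladder), and both are measured over the whole gene and over all cells of the tissue. The summed TPM of 7 colonic epithelial markers was 3163 to 4018 in colon and 308 to 375 in bladder, and that of 7 urothelial markers was 513 to 788 and 5406 to 6991, as the tissue labels say. *Muc2*, the goblet cell mucin, was at only 0.0288 to 0.917 TPM in the colon, so a value at or near 0 in these tables can be a failed estimate. Some libraries stood apart. The prostate gene *Pbsn* reached 967 TPM in Ctrl bladder 784, 311 in Y/T KO bladder 780, and 33.8 in Y/T KO bladder 783, and was at or below 0.728 TPM in the other bladders, while neuronal transcripts were lowest in Ctrl bladder 788.

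In the knockout, *Ptprz1* was the member that changed. It fell in Y/T KO bladder (8.83-fold on the fitted scale), and in Y/T KO colon all libraries were below all Ctrl libraries without passing the test (5.16-fold). These sizes depend on the pseudocount added to such low values, and adding 1 TPM rather than 0.1 TPM gave log2 values of -2.20 for bladder and -1.23 for colon. *S100b* was higher without overlap in Y/T KO libraries of both tissues and *Gfap* in Y/T KO colon, and neither passed the test. The level of *Sox10*, *Ednrb*, *Erbb3*, and *Cdh19* overlapped between genotypes in both tissues. Of the 8 members, 7 passed the filter on low values in each tissue, and *Foxd3* did not. In the colon 0 of 7 were called by limma at an adjusted p under 0.05, where 0.137% of 17500 genes were called (0.0571% as higher, 0.08% as lower), and 3 of 7 had an unadjusted p under 0.05, where 9.73% of all genes did. In the bladder 1 of 7 was called, where 0.302% of 18237 genes were called (0.0823% as higher, 0.219% as lower), and 2 of 7 had an unadjusted p under 0.05, where 14.8% of genes did. Since the tissues were homogenized whole, fewer cells of a type and less RNA per cell cannot be told apart for any of these genes.

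**Figure D1:**
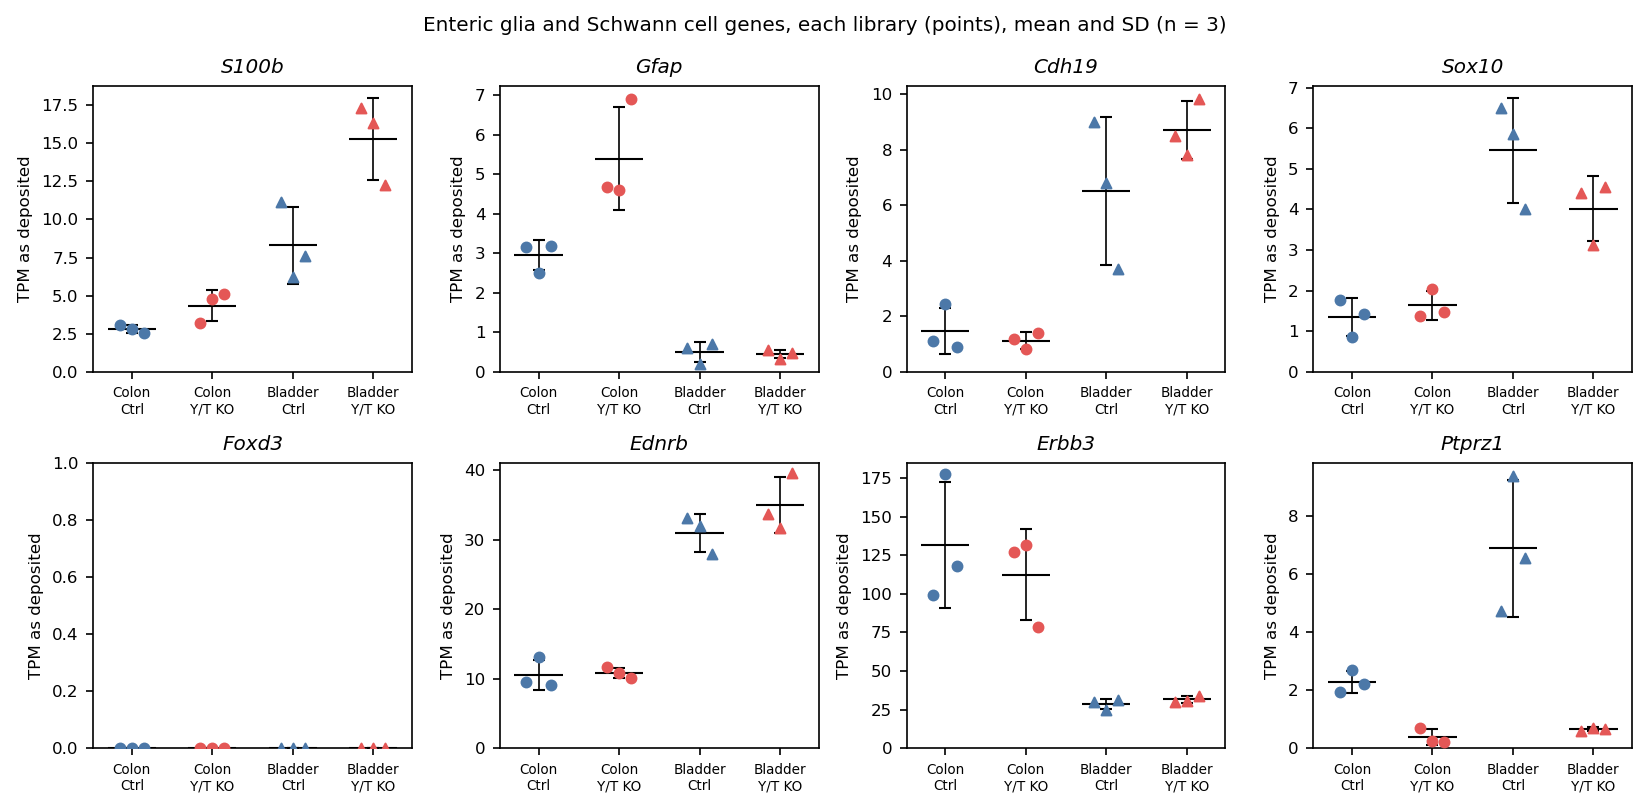
TPM of the 8 members (vertical axes, each from 0) in each library of the 4 groups, with circles for colon, triangles for bladder, blue for Ctrl, and red for Y/T KO, and with black bars for the mean and SD of 3 libraries. *Ptprz1* lies lower in the Y/T KO libraries of both tissues, *Erbb3* and *Gfap* lie higher in the colon, and *Foxd3* is listed at 0 in all 12 libraries.

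*Ptprz1* (chr6:22875502-23052916, plus strand, GRCm38, a protein-coding gene with no overlapping annotated gene) encodes the receptor phosphatase. In the bladder it was at 4.71, 9.37, and 6.55 TPM (Ctrl mice 784, 785, 788) versus 0.597, 0.710, and 0.675 TPM (Y/T KO mice 782, 783, 780). The lowest Ctrl bladder was thus well above the highest Y/T KO bladder, and the Y/T KO values lay close together. After rescaling by size factors, Ctrl bladders averaged 6.82 ± 2.31 TPM versus 0.659 ± 0.0824 TPM for Y/T KO (SD, n = 3), and the log2 fold change was -3.14 ± 0.30 (SE, 95% interval -3.87 to -2.42, limma adjusted p = 0.0166). In the colon *Ptprz1* was at 1.93, 2.70, and 2.22 TPM (Ctrl mice 788, 786, 787) versus 0.698, 0.239, and 0.230 TPM (Y/T KO mice 759, 783, 780). These groups did not overlap either, as was so for 7.87% of genes in the lower direction, and mouse 759 kept the most of the 3 knockouts. Rescaled means were 2.22 ± 0.254 and 0.390 ± 0.266 TPM (SD, n = 3), and the log2 fold change was -2.37 ± 0.43 (SE, 95% interval -3.35 to -1.38, limma adjusted p = 0.138). Average coverage of *Ptprz1* was low, at 1.46 to 1.92 reads per base in Ctrl colon, 0.189 to 0.470 in Y/T KO colon, 3.11 to 4.41 in Ctrl bladder, and 0.411 to 0.516 in Y/T KO bladder.

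The call for *Ptprz1* turned on single libraries. In the bladder it held without Ctrl mouse 784 (adjusted p = 0.0373, limma) and was lost without Ctrl mouse 785 (0.0844), Ctrl mouse 788 (0.103), or Y/T KO mouse 782 (0.0536), 783 (0.0783), or 780 (0.0683), while the log2 fold change stayed between -3.36 and -2.89. In the colon it was gained without Y/T KO mouse 759 (log2 fold change -2.78, adjusted p = 0.0381) and when all 12 libraries shared one fit (-2.41, adjusted p = 0.0208). The knockout effect on *Ptprz1* in the colon differed from that in the bladder by a log2 of 0.71 ± 0.53 (SE, 95% interval -0.45 to 1.88, limma interaction adjusted p = 0.594), so a difference between tissues was not shown.

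*Ptprz1* and *S100b* were the members whose genotypes separated in both tissues, and the 250 bases before their annotated starts are shown for this reason (RefSeq, GRCm38.p6, plus strand for both, chr6:22875252-22875501 and chr10:76253586-76253835).
Ptprz1: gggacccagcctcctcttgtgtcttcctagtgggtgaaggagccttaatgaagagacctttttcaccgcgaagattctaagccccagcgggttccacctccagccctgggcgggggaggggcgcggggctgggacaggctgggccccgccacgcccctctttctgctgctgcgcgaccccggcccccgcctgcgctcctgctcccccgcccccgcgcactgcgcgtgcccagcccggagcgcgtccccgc
S100b: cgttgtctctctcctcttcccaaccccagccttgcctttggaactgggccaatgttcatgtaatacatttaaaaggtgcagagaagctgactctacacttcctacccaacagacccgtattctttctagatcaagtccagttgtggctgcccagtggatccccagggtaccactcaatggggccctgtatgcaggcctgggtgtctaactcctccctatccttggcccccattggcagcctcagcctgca
The upstream sequence of *Ptprz1* is rich in G and C (71.6%), and that of *S100b* holds 53.6%. Neither sequence holds the SOX cores ACAAAG and ACAATG or the TEAD core GGAATG on either strand, so no letters are in capitals, nor do those of *Gfap*, *Ednrb*, and *Foxd3*. Of 32851 mouse promoters of this length, 16.5%, 10.7%, and 12.6% hold these motifs. These counts describe the letters in this window and do not speak of binding.

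Of 4 genes for binding partners of PTPRZ1, limma called 2 in the colon, *Ptn* as lower and *Tnc* as higher, where 0.137% of 17500 genes were called. In the bladder 0 were called (1 at an unadjusted p under 0.05). There 0.302% of 18237 genes were called and 14.8% were under 0.05 unadjusted. These 4 genes were listed with earlier results of these data known. Pleiotrophin (*Ptn*, chr6:36714929-36810220, minus strand) was at 32.5, 33.3, and 32.5 TPM (Ctrl colons 788, 786, 787) versus 14.6, 9.83, and 11.99 TPM (Y/T KO colons 759, 783, 780). It fell in the Y/T KO colon by a log2 of 1.41 ± 0.18 (SE, limma adjusted p = 0.0487), to 12.2 ± 2.42 from 32.1 ± 1.80 rescaled TPM (SD, n = 3). Tenascin C (*Tnc*, chr4:63959785-64047015, minus strand), a matrix glycoprotein whose exons share 176 bases with the antisense gene *8030451A03Rik* (at most 0.858 TPM), was at 47.6, 48.9, and 49.0 TPM versus 99.6, 91.0, and 102 TPM for the same mice. It rose 2.06-fold with knockout (1.04 ± 0.13 on the log2 scale, SE, limma adjusted p = 0.0446), and its Ctrl and Y/T KO libraries lay far apart. The call for *Ptn* was lost in 5 of 6 fits with a library left out (adjusted p up to 0.195) and held only without Y/T KO mouse 759 (0.0301), and that for *Tnc* was lost in 6 of 6 (0.0691 to 0.195). Midkine (*Mdk*) had a log2 fold change of 0.87 ± 0.34 in the colon and contactin 1 (*Cntn1*), an axonal adhesion molecule, one of -0.77 ± 0.36 (SE, limma adjusted p = 0.492 and 0.545). In the bladder, *Ptn* was at 24.7 to 32.2 TPM in Ctrl versus 22.01 to 30.1 TPM in Y/T KO (-0.10 ± 0.18 on the log2 scale, SE, limma adjusted p = 0.830), and *Tnc* at 81.3 to 132 and 56.5 to 87.8 TPM (-0.58 ± 0.24, adjusted p = 0.331). *Mdk* and *Cntn1* had bladder log2 fold changes of -0.06 ± 0.24 and -0.18 ± 0.37 (SE, limma adjusted p = 0.929 and 0.853). Colon and bladder effects differed by a log2 of -1.33 ± 0.26 for *Ptn* and 1.60 ± 0.28 for *Tnc* (SE, limma interaction adjusted p = 0.124 and 0.0966), so neither was called as different between colon and bladder. Without Ctrl bladder 784 the difference for *Tnc* was called (1.81, adjusted p = 0.0343).

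**Figure D2:**
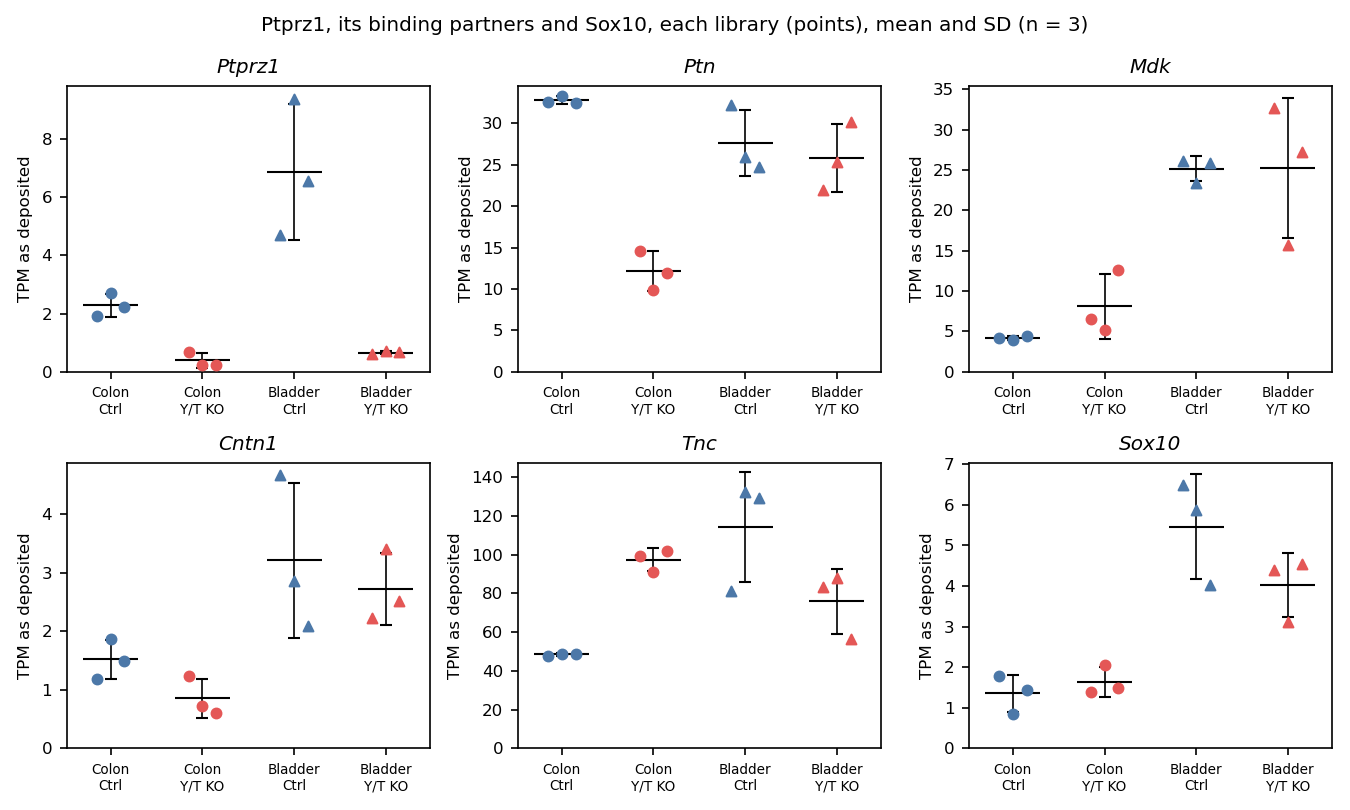
TPM of *Ptprz1*, its binding partners *Ptn*, *Mdk*, *Cntn1*, and *Tnc*, and the glial gene *Sox10* (vertical axes, each from 0) in each library, with circles for colon, triangles for bladder, blue for Ctrl, red for Y/T KO, and black bars for mean and SD of 3 libraries. The Y/T KO colons lie at 9.83 to 14.6 TPM of *Ptn* and 91.0 to 102 TPM of *Tnc*, apart from the Ctrl colons, while *Sox10* overlaps between genotypes.

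Markers of smooth muscle, the cells in which the Cre is active, had a lower summed TPM in Y/T KO than in Ctrl libraries of both tissues. The markers were not alike in each library. Y/T KO bladder 782 (*Ptprz1* at 0.597 TPM) had *Myh11* at 2722 TPM, above all Ctrl bladders. Its *Acta2*, *Actg2*, *Tagln*, *Cnn1*, and *Des* were below all Ctrl bladders. The summed TPM of *Acta2*, *Myh11*, *Actg2*, *Tagln*, *Cnn1*, and *Des* was 7366 to 8103 in Ctrl and 4838 to 5668 in Y/T KO colon, and 34390 to 44891 in Ctrl and 16235 to 29842 in Y/T KO bladder. All 6 had negative log2 fold changes in both tissues. Genotypes did not overlap for 4 of 6 in the colon and 5 of 6 in the bladder, where 7.87% and 11.4% of all genes did so in that direction. Limma called 0 of 6, with 4 and 5 at an unadjusted p under 0.05, where 9.73% and 14.8% of all genes were. With DESeq2 on counts, the authors reported *Acta2*, *Actg2*, and *Tagln* as lower in both tissues, so the lack of calls here does not show a lack of change. The part of smooth muscle in the result for *Ptprz1* was not tested. Set against *Sox10*, the factor that glia of both kinds share, *Ptprz1* had a TPM ratio of 1.09 to 3.17 in Ctrl colon and 0.117 to 0.505 in Y/T KO colon, and of 0.725 to 1.63 in Ctrl bladder and 0.136 to 0.228 in Y/T KO bladder. These ratios, chosen after the values were seen, did not overlap between genotypes in either tissue. That largely repeats the separation of *Ptprz1* itself and is no separate test, and it does not tell which cells the transcript came from.

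*Ednrb* (chr14:103814625-103844402, minus strand) encodes the receptor for endothelin 3, a signal that neural crest cells need to colonize the gut. It was at 9.56, 13.1, and 9.14 TPM (Ctrl colons 788, 786, 787) versus 11.6, 10.8, and 10.2 TPM (Y/T KO colons 759, 783, 780). Bladder levels stood at 33.1, 31.9, and 27.9 TPM (Ctrl mice 784, 785, 788) versus 33.7, 31.7, and 39.5 TPM (Y/T KO mice 782, 783, 780). Genotypes overlapped in both tissues, with log2 fold changes of 0.09 ± 0.17 (95% interval -0.31 to 0.49) and 0.17 ± 0.13 (-0.14 to 0.49) in colon and bladder (SE, limma adjusted p = 0.881 and 0.583), so these intervals leave out a change of 2-fold. Of 6 endothelin pathway genes, the colon fit held 6 and the bladder fit 5, and 0 were called by limma in either tissue. At an unadjusted p under 0.05 there were 2 and 0, where 9.73% and 14.8% of all genes were. The ligand *Edn1* was at 46.0 to 66.1 TPM in Ctrl versus 20.7 to 40.5 TPM in Y/T KO colon (-0.70 ± 0.26 on the log2 scale, SE, limma adjusted p = 0.464), and the other receptor, *Ednra*, at 9.92 to 12.3 and 14.9 to 19.2 TPM (0.61 ± 0.17, adjusted p = 0.372). These were the only genes of the list without overlap in the colon, where 7.87% of all genes were lower and 8.24% higher without overlap. *Edn3*, the ligand of EDNRB in gut development, was at 2.29 to 3.69 TPM in Ctrl versus 3.12 to 4.53 TPM in Y/T KO colon (limma adjusted p = 0.807), and at 3.77 to 11.3 and 5.596 to 9.04 TPM in the bladder (0.918). The ligand *Edn2* (12.6 to 15.3 and 7.63 to 15.3 TPM in Ctrl and Y/T KO colon) and the converting enzymes *Ece1* (54.2 to 62.4 and 44.3 to 59.6 TPM) and *Ece2* (0.0750 to 2.15 and 0 to 2.46 TPM) overlapped there between genotypes.

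*Erbb3* (chr10:128567523-128589652, minus strand) encodes the neuregulin receptor of Schwann cells and their precursors, and is also expressed in epithelium. In the colon it was at 98.9, 177, and 118 TPM (Ctrl mice 788, 786, 787) versus 127, 131, and 78.4 TPM (Y/T KO mice 759, 783, 780). Bladder levels were at 29.8, 24.9, and 31.3 TPM (Ctrl mice 784, 785, 788) versus 30.0, 30.9, and 34.2 TPM (Y/T KO mice 782, 783, 780). Colon libraries of both genotypes were mixed, and the log2 fold changes were -0.18 ± 0.25 (95% interval -0.76 to 0.39) in the colon and 0.15 ± 0.12 (-0.14 to 0.44) in the bladder (SE, limma adjusted p = 0.821 and 0.606). Of 7 neuregulin pathway genes, the colon fit held 4 and the bladder fit 6, and 0 were called by limma in either tissue. At an unadjusted p under 0.05 there were 0 and 0, where 9.73% and 14.8% of all genes were. *Nrg1*, the neuregulin of axons, was at 1.95 to 2.19 TPM in Ctrl versus 1.69 to 6.58 TPM in Y/T KO colon, the co-receptor *Erbb2* at 68.7 to 75.2 and 47.0 to 81.5 TPM, and the related receptor *Egfr* at 12.8 to 19.3 and 13.9 to 14.6 TPM. *Nrg4* was higher in the Y/T KO colon without overlap, as 8.24% of genes were (0.438 to 1.31 against 1.41 to 1.49 TPM, log2 fold change 0.98 ± 0.43 SE, limma adjusted p = 0.521). The ligands *Nrg2* and *Nrg3* were at or below 0.216 TPM in the colon, and the receptor *Erbb4* was listed at 0 in all colon libraries.

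*Sox10* (chr15:79154908-79165240, minus strand), the lineage transcription factor, was at 1.77, 0.850, and 1.43 TPM (Ctrl colons 788, 786, 787) versus 1.38, 2.05, and 1.48 TPM (Y/T KO colons 759, 783, 780). In the bladder it was at 6.49, 5.87, and 4.01 TPM (Ctrl mice 784, 785, 788) versus 4.41, 3.11, and 4.55 TPM (Y/T KO mice 782, 783, 780). The genotypes overlapped, with log2 fold changes of 0.33 ± 0.37 (95% interval -0.53 to 1.18) in the colon and -0.42 ± 0.26 (-1.05 to 0.20) in the bladder (SE, limma adjusted p = 0.786 and 0.495). *Foxd3* (chr4:99656299-99658622, plus strand), a transcription factor of early neural crest, was listed at 0 in all 12 libraries. It shares 89 of its 2324 exon bases with the miRNA gene *Gm23366* on the same strand, which was also listed at 0. Among SOX10 relatives and partners (*Sox8*, *Sox9*, *Pax3*, *Tfap2a*, and *Zeb2*), the colon fit held 2 and the bladder fit 4, and 0 were called by limma. At an unadjusted p under 0.05 there were 1 and 0, where 9.73% and 14.8% of all genes were. The 1 was *Sox9*, at 19.3 to 27.9 TPM in Ctrl versus 29.2 to 43.8 TPM in Y/T KO colon.

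*S100b* (chr10:76253853-76261159, plus strand) was higher in Y/T KO libraries in both tissues. In the colon it was at 3.07, 2.83, and 2.58 TPM (Ctrl mice 788, 786, 787) versus 3.18, 4.76, and 5.12 TPM (Y/T KO mice 759, 783, 780). The bladder had it at 11.1, 6.21, and 7.58 TPM (Ctrl mice 784, 785, 788) versus 17.3, 16.3, and 12.2 TPM (Y/T KO mice 782, 783, 780). The groups did not overlap in either tissue, as was so in the higher direction for 8.24% of genes in the colon and 10.6% in the bladder, but the gap was narrow, from 3.07 to 3.18 TPM in the colon and from 11.1 to 12.2 TPM in the bladder. Log2 fold changes were 0.62 ± 0.26 (95% interval 0.02 to 1.21) and 0.90 ± 0.26 (0.28 to 1.52) in colon and bladder (SE), which limma did not call (adjusted p = 0.505 and 0.210). The ratio of *S100b* to *Sox10* was 1.73 to 3.33 in Ctrl and 2.30 to 3.46 in Y/T KO colon, which overlapped, and 1.06 to 1.89 in Ctrl and 2.69 to 5.24 in Y/T KO bladder, which did not. This ratio was also chosen after the values were seen. S100B is also made by adipocytes, whose 6 markers (*Adipoq*, *Plin1*, *Cidec*, *Lep*, *Fabp4*, and *Cfd*) summed to 1872 to 3806 TPM in Ctrl versus 3174 to 4963 TPM in Y/T KO bladder and to 147 to 357 and 155 to 179 TPM in the colon. In the bladder 6 of 6 had positive log2 fold changes and in the colon 5 of 5 tested had negative ones, with 0 called by limma in either tissue. At an unadjusted p under 0.05 there were 0 in the bladder and 2 in the colon, where 14.8% and 9.73% of all genes were. The part of adipocytes in the values of *S100b* was not tested.

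*Gfap* (chr11:102887336-102900912, minus strand) was at 3.16, 2.51, and 3.18 TPM (Ctrl colons 788, 786, 787) versus 4.67, 4.61, and 6.90 TPM (Y/T KO colons 759, 783, 780). All Y/T KO colons were above all Ctrl colons, as was so for 8.24% of genes in that direction. The log2 fold change of *Gfap* there was 0.87 ± 0.27 (SE, 95% interval 0.25 to 1.48) and was not called (limma adjusted p = 0.413). In the bladder *Gfap* was low, at 0.597, 0.209, and 0.696 TPM (Ctrl mice 784, 785, 788) versus 0.542, 0.334, and 0.480 TPM (Y/T KO mice 782, 783, 780), and genotypes overlapped (log2 fold change -0.03 ± 0.51 SE, limma adjusted p = 0.984). The knockout effect on *Gfap* differed between tissues by a log2 of 0.88 ± 0.52 (SE, 95% interval -0.25 to 2.01, limma interaction adjusted p = 0.501). *Cdh19* (chr1:110888326-110977584, minus strand) was at 1.10, 2.43, and 0.879 TPM versus 1.18, 0.817, and 1.39 TPM in the colon for the same mice. Its bladder levels lay at 8.999, 6.798, and 3.70 TPM (Ctrl mice 784, 785, 788) versus 8.49, 7.81, and 9.83 TPM (Y/T KO mice 782, 783, 780). The Ctrl values spread more than the Y/T KO values in both tissues, and the log2 fold changes were -0.22 ± 0.40 and 0.50 ± 0.34 in colon and bladder (SE, limma adjusted p = 0.874 and 0.539).

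**Figure D3:**
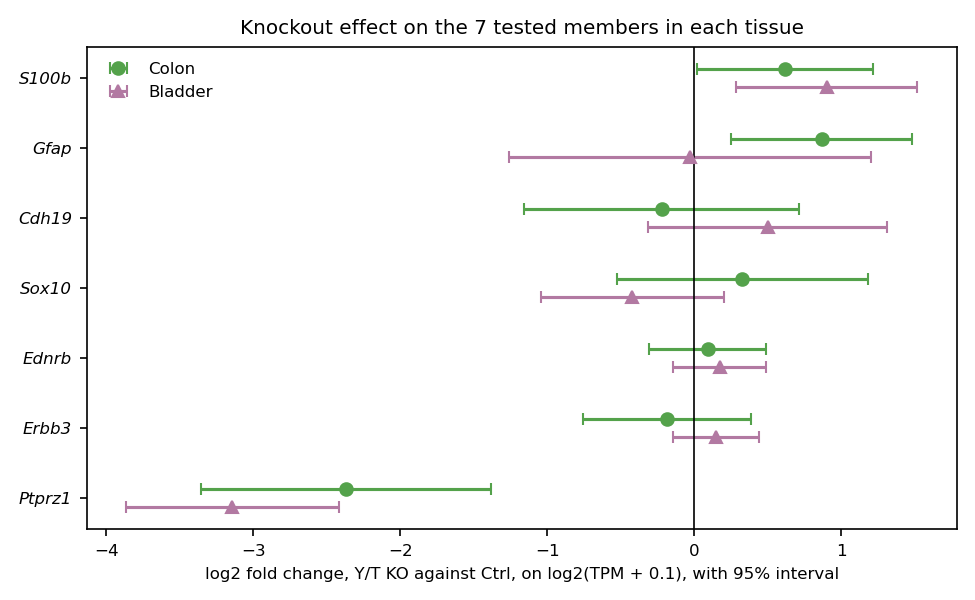
Log2 fold change of Y/T KO against Ctrl on the log2(TPM + 0.1) scale (horizontal axis) for the 7 tested members (rows), with green circles for colon, purple triangles for bladder, and bars for the 95% interval from limma. The intervals of *Ptprz1* (-3.35 to -1.38 in colon, -3.87 to -2.42 in bladder) lie below 0, and those of *S100b* in both tissues and *Gfap* in colon lie above 0 although these were not called after adjustment.

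The test of the difference between tissues called 0 of 7 members (limma interaction, 0 of 7 also at an unadjusted p under 0.05), where 0.0491% of 16298 genes were called (0.0184% as higher, 0.0307% as lower) and 12.6% were under 0.05 unadjusted. The differences not given above were a log2 of 0.73 ± 0.46 for *Sox10*, -0.11 ± 0.20 for *Ednrb*, -0.36 ± 0.30 for *Erbb3*, -0.30 ± 0.37 for *S100b*, and -0.74 ± 0.54 for *Cdh19* (SE, adjusted p from 0.526 to 0.852). The interval for *Cdh19* ran from -1.93 to 0.45, which does not show that its effects are alike.

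Taken as lists, other genes of non-myelinating glia and of myelinating Schwann cells moved little with the knockout, and their medians lay near those of all genes. Of 18 other glial genes, 12 were tested in the colon, with 6 higher, 6 lower, and a median log2 fold change of 0.01, and 17 in the bladder, with 11 higher, 6 lower, and a median of 0.12. Of 17 myelin and Schwann cell genes, 10 were tested in the colon (3 higher, 7 lower, median -0.07) and 13 in the bladder (4 higher, 9 lower, median -0.09). The median of all genes was 0.01 in the colon and 0.00 in the bladder. Over both lists limma called 1 of 22 in the colon, where 0.137% of all genes were called, and 0 of 30 in the bladder. At an unadjusted p under 0.05 there were 1 higher and 1 lower in the colon, where 9.73% of genes were, and 0 of 30 in the bladder, where 14.8% were. Without overlap, 2 were higher (*Gfra3* and *Matn2*) and 1 lower in the colon, where 8.24% and 7.87% of genes did so. In the bladder 0 were higher and 2 lower, where 10.6% and 11.4% did. Among glial genes of the colon *L1cam*, an adhesion molecule (31.1 to 45.4 TPM in Ctrl, 25.8 to 32.1 TPM in Y/T KO, a difference of -0.27 ± 0.16 SE on the log2 scale), and *Entpd2*, an ectonucleotidase of glia (18.3 to 44.3 and 18.9 to 48.2 TPM, 0.03 ± 0.46 SE), had the highest and near-equal means. In the bladder *Matn2*, a matrix protein of peripheral nerves, was the highest (135 to 163 and 150 to 172 TPM, 0.12 ± 0.11 SE).

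The gene called in the colon was *Mal*, a membrane protein of myelin that also serves sorting to the apical membrane of epithelial cells. It was at 18.2, 16.9, and 19.5 TPM (Ctrl colons 788, 786, 787) versus 5.12, 5.13, and 3.49 TPM (Y/T KO colons 759, 783, 780), and the groups lay far apart. *Mal* fell by 1.95 ± 0.22 on the log2 scale in the colon (SE, limma adjusted p = 0.0329), while in the bladder it was at 235 to 319 TPM in Ctrl versus 244 to 293 TPM in Y/T KO (-0.09 ± 0.14 on the log2 scale, SE, adjusted p = 0.807). The effects in the tissues differed by a log2 of -1.89 ± 0.25 (SE, limma interaction adjusted p = 0.0239). Both calls turned on single libraries. The interaction call was lost without Ctrl colon 788 (0.0802) or 787 (0.0626), Ctrl bladder 784 (0.0536) or 788 (0.0692), or Y/T KO bladder 783 (0.0782), and the colon call was lost in 5 of 6 fits with a library left out (adjusted p up to 0.141) and held only without Y/T KO mouse 759 (0.0325). *Egr2*, a regulator of myelination, was listed at 0 in all 12 libraries. The connexin *Gjb1* was split in the bladder, at 11.9, 22.5, and 18.0 TPM in Ctrl mouse 784 and Y/T KO mice 780 and 783 and at 0.129 to 0.342 TPM in the other bladders. These were the libraries with *Pbsn* at 33.8 TPM or more, and the part of such tissue in the *Gjb1* values was not tested.

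**Figure D4:**
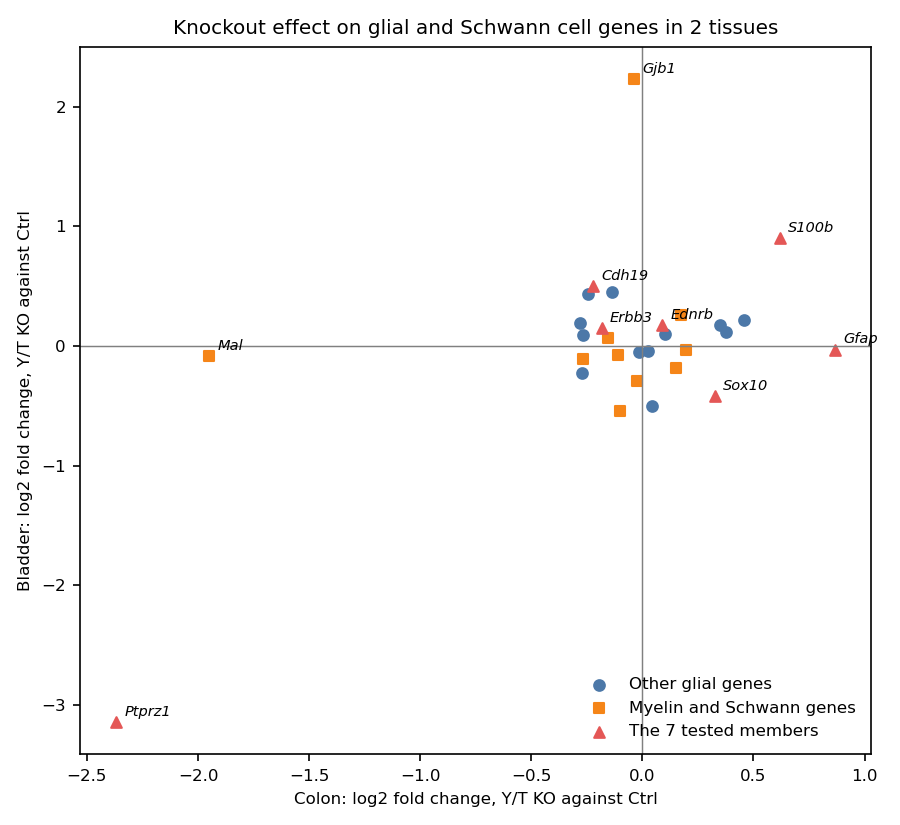
Log2 fold change of Y/T KO against Ctrl on the log2(TPM + 0.1) scale in the colon (horizontal) and in the bladder (vertical) for the genes tested in both tissues, with red triangles for the 7 members, blue circles for other glial genes, and orange squares for myelin and Schwann cell genes. *Ptprz1* lies alone at the lower left (-2.37 and -3.14), *Mal* lies at the left (-1.95 and -0.09), *Gjb1* at the top, and most other genes lie near 0 on both axes.

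Markers of other cells that accompany glia moved as follows. Of 15 neuronal genes, 13 were tested in each tissue, with 8 lower and a median log2 fold change of -0.42 in the colon and 12 higher and a median of 0.47 in the bladder. Limma called 0 (at an unadjusted p under 0.05, 1 higher and 2 lower in the colon and 1 higher in the bladder). Of all genes, 9.73% in the colon and 14.8% in the bladder were under 0.05 unadjusted, which also applies to the cell types below. Without overlap, 4 of 13 were lower and 0 higher in the colon, where 7.87% and 8.24% of all genes did so. In the bladder 0 were lower and 1 higher, where 11.4% and 10.6% did. The summed TPM of the neuronal genes, in which the highest genes weigh most, was 210 to 265 in Ctrl and 208 to 333 in Y/T KO colon, and 373 to 684 and 562 to 676 in the bladder. Ctrl bladder 788 was the lowest of all bladders in *Th*, the catecholamine enzyme, at 0.197 TPM against 2.96 to 10.8 TPM in the others, and in the tyrosine kinase receptor *Ret*, at 1.26 TPM against 7.47 to 14.6 TPM. Without this library the *S100b* log2 fold change in the bladder was 0.83 (limma adjusted p = 0.377). The melanocyte genes *Tyr* and *Mlana*, of another neural crest lineage, were listed at 0 in all 12 libraries, and 0 of 3 and 0 of 2 melanocyte genes tested in colon and bladder were called by limma (0 and 1 at an unadjusted p under 0.05). Limma called 0 of 6 endothelial, 0 of 3 interstitial, and 0 of 5 macrophage markers in each tissue, 0 of 6 epithelial and 0 of 5 urothelial markers in colon, 0 of 4 and 0 of 7 in bladder, and 0 of 6 pancreatic acinar markers in the colon and 0 of 1 in the bladder (at an unadjusted p under 0.05, 0, 0, 2, 1, 0, and 5 in the colon and 0, 2, 1, 0, 1, and 0 in the bladder, in the same order of cell types). Of the 5 acinar markers below that value in the colon, all were lower in Y/T KO, and 0 of 2 accessory gland markers tested in the bladder were called (0 at an unadjusted p under 0.05). The part of these cell types in the members' values was not tested.

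Most members differed between colon and bladder in both genotypes. In Ctrl mice *Erbb3* was 5.34-fold and *Gfap* 6.40-fold higher in the colon, whereas *Sox10*, *Ednrb*, *Ptprz1*, *S100b*, and *Cdh19* were 2.34-fold to 3.63-fold higher in the bladder. All 7 tested members were called in Ctrl mice, where 50.4% of 19773 genes were called (25.1% as higher and 25.3% as lower in the colon), and 6 of 7 in Y/T KO mice, where 51.3% were called (25.8% as higher and 25.6% as lower). These 7 and 6 were also the members under 0.05 unadjusted, as were 55.9% and 57.3% of genes. Tissues did not overlap for 2 members higher and 5 lower in Ctrl colon, where 29.4% and 29.3% of genes did so, and for 2 higher and 4 lower in Y/T KO colon, where 29.8% and 29.4% did. The colon-minus-bladder log2 difference in Ctrl was 2.42 ± 0.22 for *Erbb3* and 2.68 ± 0.36 for *Gfap*, and -1.71 ± 0.32 for *Sox10*, -1.29 ± 0.14 for *Ednrb*, -1.25 ± 0.37 for *Ptprz1*, -1.23 ± 0.26 for *S100b*, and -1.86 ± 0.39 for *Cdh19* (SE, limma adjusted p from 3.07e-06 to 0.0148). In Y/T KO mice *Erbb3* differed by 2.06 ± 0.22, *Gfap* by 3.56 ± 0.36, *Sox10* by -0.98 ± 0.32, *Ednrb* by -1.40 ± 0.14, *S100b* by -1.53 ± 0.26, and *Cdh19* by -2.60 ± 0.39 (SE, limma adjusted p from 8.80e-06 to 0.0238). With a pseudocount of 1 TPM the difference of *Gfap* was 1.54 in Ctrl and 2.28 in Y/T KO and that of *Cdh19* in Y/T KO was -1.99, and all were still called. *Ptprz1* was the exception in Y/T KO mice, at 0.230 to 0.698 TPM in the colon and 0.597 to 0.710 TPM in the bladder (-0.54 ± 0.37, adjusted p = 0.249). That exception rested on Y/T KO mouse 759, without which the difference was -0.97 (limma adjusted p = 0.0251), and whether the tissue difference of *Ptprz1* itself differed between genotypes is the interaction given above. The call for *Ptprz1* in Ctrl was lost without Ctrl colon 788 (0.0507) or Ctrl bladder 785 (0.0661), and that for *Sox10* in Y/T KO without Y/T KO colon 759 or 780 or bladder 782 or 780 (0.0645 to 0.0742).

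These differences depend on the scale on which the tissues are set side by side. With TPM as deposited, the median of all genes moved from 0.01 to -0.24 in Ctrl and to -0.26 in Y/T KO, and genes higher in the colon made up 35.7% and 35.2% of calls instead of 49.8% and 50.2%. All members kept their direction on that scale, and *Ptprz1* differed by -1.51 in Ctrl (limma adjusted p = 0.00557). All 6 tested epithelial markers were called as higher in the colon in both genotypes, as *Erbb3* and *Gfap* were. All 6 smooth muscle, 6 adipocyte, and 6 endothelial markers were called as lower in the colon in both genotypes, as most members were. Their part in the tissue differences was not tested.

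The order of the members' levels differed between the groups. *Erbb3* led in the colon (98.9 to 177 TPM in Ctrl), followed by *Ednrb* (9.14 to 13.1 TPM) and without overlap with it, and in Ctrl colon the ranges of *Gfap*, *S100b*, *Ptprz1*, *Cdh19*, and *Sox10* then overlapped from each to the next. In Ctrl bladder *Ednrb* (27.9 to 33.1 TPM) and *Erbb3* (24.9 to 31.3 TPM) overlapped at the top, *S100b*, *Ptprz1*, *Cdh19*, and *Sox10* overlapped from each to the next between 3.70 and 11.1 TPM, and *Gfap* was below all of them at 0.209 to 0.696 TPM. In Y/T KO mice *Ptprz1* was seventh in the colon, below all ranges but that of *Foxd3*, and sixth in the bladder, above *Gfap* and without overlap with its neighbors.

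Other glial genes were also higher in the bladder. Of 17 tested, 15 were called as lower in the colon and 1 (*L1cam*) as higher in both Ctrl and Y/T KO mice, with median log2 differences of -1.76 and -2.03, where the median of all genes was 0.01 and 0.01. Of 13 myelin and Schwann cell genes tested, 4 were called as higher and 5 as lower in the colon in Ctrl, and 3 and 5 in Y/T KO. The myelin list also holds genes that epithelia express, and *Pllp*, a proteolipid also made by epithelium, was at 142 to 251 TPM in Ctrl colon and 30.1 to 37.1 TPM in Ctrl bladder.

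**Figure D5:**
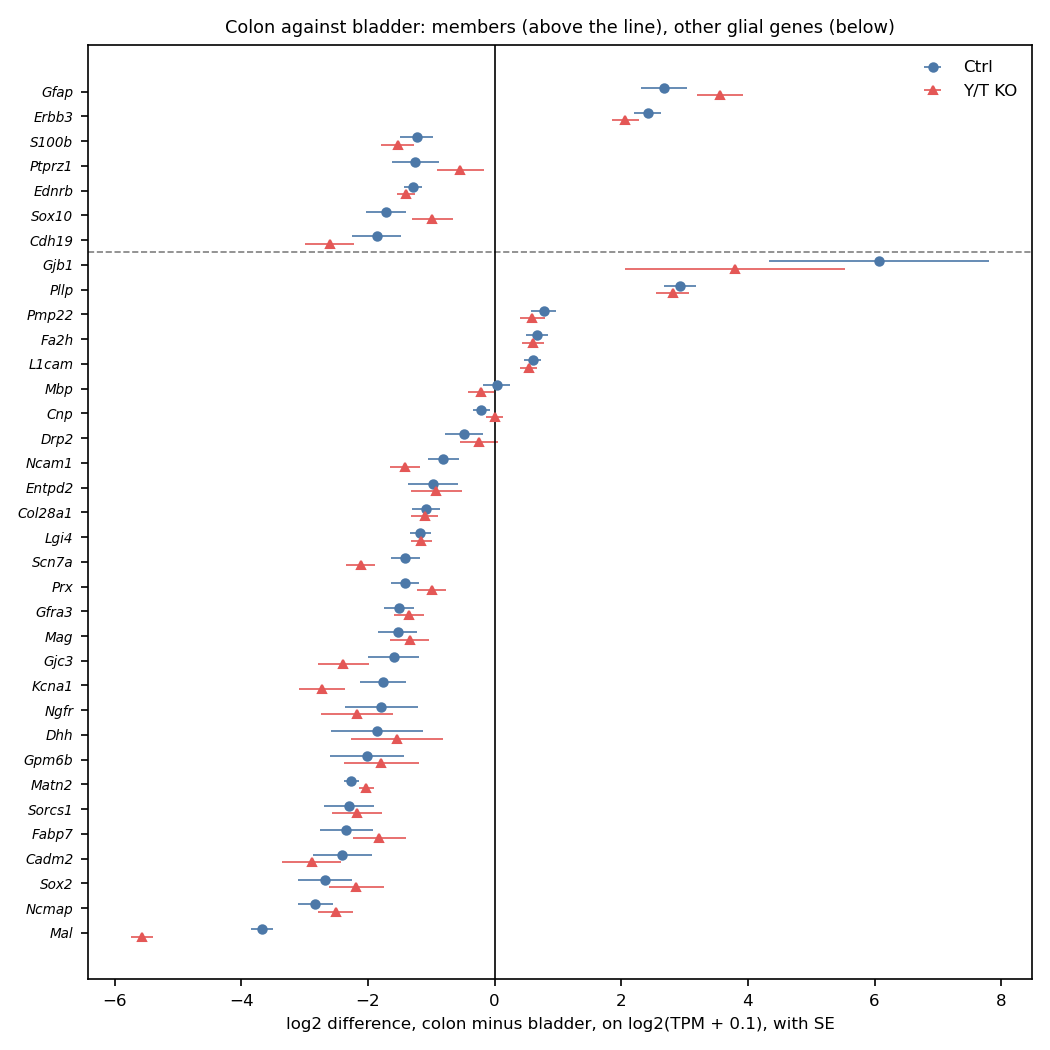
Colon-minus-bladder difference of log2(TPM + 0.1) (horizontal axis, with SE) in Ctrl (blue circles) and Y/T KO mice (red triangles) for the 7 tested members, above the dashed line, and 28 other glial and Schwann cell genes, below it. *Erbb3* and *Gfap* lie to the right of 0 (2.42 and 2.68 in Ctrl), the other members lie to the left, and most other glial genes lie to the left as well.

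The signaling partners differed between the tissues too. In Ctrl mice *Edn1* and *Edn2* were called as higher in the colon by a log2 of 3.71 ± 0.47 and 5.28 ± 0.38, and *Edn3*, at 2.29 to 3.69 TPM in colon and 3.77 to 11.3 TPM in bladder, was not called (-0.90 ± 0.38 SE, limma adjusted p = 0.0717). *Erbb2* was higher in the colon by 1.51 ± 0.17, and *Nrg2* and *Nrg4* differed by -4.08 ± 0.50 and -1.08 ± 0.40 (SE, limma adjusted p = 2.00e-05, 4.05e-05, and 0.0429). *Ptn* was higher in Ctrl colon than in Ctrl bladder by 0.52 ± 0.18 and differed by -0.82 ± 0.18 in Y/T KO mice (SE, limma adjusted p = 0.0330 and 0.00279). *Tnc* changed sides the other way, at -0.94 ± 0.20 in Ctrl and 0.66 ± 0.20 in Y/T KO (SE, limma adjusted p = 0.00208 and 0.0159). Whether these tissue differences themselves differed between genotypes is the interaction test, which called neither gene.

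Over the 12 libraries the mean pattern of the 7 tested members was among the most like that of *Nell1* (Pearson r = 0.93), *Isl1* (0.92), *Exoc3l2* (0.91), and *Tub* (0.90). After the mean of each tissue and genotype group was taken out, it was most like that of *Tub* (0.97), *Pnmal1* (0.95), *Grik2* (0.95), *Pnma2* (0.94), and *Crisp1* (0.93). Taken alone, *Ptprz1* was most like *Slc26a7* (0.94), *Gm45552* (0.93), *Gm21284* (0.92), *4930511M06Rik* (0.92), and *Ankrd1* (0.91), and *S100b* was close to *Olfm1* (0.96), *Klhl30* (0.96), *Ncald* (0.96), and *Klf15* (0.96). The libraries share tissue, genotype, and in part mice, and no test was made of these correlations. Likeness to single members was added after the values were seen.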

How the data were processed

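Total RNA of colon and bladder homogenates was made into stranded poly(A) libraries by the authors, who ran HISAT2 and StringTie (versions not given in the sources used here) on GRCm38 and DESeq2 on counts that were not used here. The deposited TPM, the FPKM made by the authors, and the deposited coverage (signal, reads per base) come from StringTie, and whether it used strand is not given in the sources used here. Groups and mouse numbers came from the labels. Rows were summed by gene ID. Of 54495 genes matched by ID to GENCODE M21 on GRCm38, 53539 had the same coordinates.

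TPM was divided by median-of-ratios size factors and genes reaching 0.5 TPM in 3 or more libraries of a fit were tested as log2(TPM + 0.1) with limma 3.58.1 (R 4.3.3, eBayes with trend and robust, tested on simulated data). Fold changes are on that scale and understate changes of low genes. P-values are two-sided and Benjamini-Hochberg adjusted over all genes tested, called under 0.05, and measure the spread between mice. Counting error of a TPM value was not estimated. An exact permutation of 3 against 3 libraries cannot go below 0.10. Each tissue was fitted alone, and the interaction and tissue comparisons used all 12 libraries.

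The numbers pair colon and bladder because same-numbered libraries come from the same mouse. Deviations of the 3 shared mice correlated at -0.01, 0.07, and 0.04 over genes. Pairs of different mice of a genotype ran from -0.0671 to 0.0565, so these correlations do not by themselves show the pairing. Alternatives were other pseudocounts, filters, scales, and fits, the mouse as a block, and each library left out. Members and gene lists (endothelin, neuregulin, PTPRZ1 partners, SOX partners, other glia, myelin, and markers of other cells) were chosen with earlier results of these data known. All members, all genes of the 3 signaling lists, and from other lists the called genes and the gene of highest mean were named, and genes outside this rule were chosen after their values were seen. A few genes that the rule names are not reported here. Promoters came from RefSeq for 5 of 8 members. Rows were joined in pandas 2.3.3 (Python 3.11.15) and plotted in matplotlib 3.10.9.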

Additional observations from a re-analysis of the deposited data

How the results depend on the processing

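In the bladder 1 member was called under all 8 settings that kept all libraries (log2 fold change of *Ptprz1* from -3.14 to -2.20, adjusted p from 0.00706 to 0.0238), and 0 to 1 with a library left out. In the colon 0 members were called under 7 of 8 settings and 1 with all 12 libraries in one fit, and 0 to 1 with a library left out. *Ptprz1* there ran from -2.41 to -1.23, the smallest size with a pseudocount of 1 TPM, with adjusted p from 0.0208 to 0.192. Counts called between tissues were 7 in Ctrl and 6 in Y/T KO with all libraries and 6 to 7 and 5 to 6 with a library left out, and the interaction called 0 throughout. With the mouse as a replicate block (consensus correlation 0.0515 for tissues, 0.0566 for the interaction), the pairing changed no member's call (7, 6, and 0), and 10 genes instead of 8 had an interaction.

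Signs turned in fits with a library left out for *Sox10* in the colon (-0.00876 without Ctrl mouse 786, range -0.00876 to 0.56), *Cdh19* in the colon (0.13 without Ctrl mouse 786, range -0.46 to 0.13), *Erbb3* in the colon (0.0462 without Y/T KO mouse 780, range -0.35 to 0.0462), *Gfap* in the bladder (0.11 without Y/T KO mouse 783, range -0.45 to 0.11), and *Ptn* in the bladder (0.0368 without Ctrl mouse 784 and 0.0381 without Y/T KO mouse 782, range -0.21 to 0.0381), none of which were called, and the cause was not tested. The call of *Ptn* in the colon was lost without the filter and without the trend and robust options (adjusted p = 0.0890 and 0.0998), that of *Tnc* with these and with all 12 libraries in one fit (0.0781, 0.116, and 0.0617), and that of *Mal* without the filter (0.0717). The *Mal* interaction call was lost without the trend and robust options (0.0545). *Gfap* in the bladder gave no value with FPKM, with a mean of at least 1 TPM, or without Ctrl mouse 784 or 788 or Y/T KO mouse 782, since it then failed the filter. Leaving out a library leaves 2 against 3, and the low coverage of *Ptprz1* and of most members limits what smaller changes can be seen.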
